A study of Arabidopsis thaliana with 9 samples.

Results

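The genes described here are 10 extensin genes of Arabidopsis thaliana, EXT3 (AT1G21310), ATEXT4 (AT1G76930), AT1G23720, AT1G26240, AT1G26250, AT2G24980, AT2G43150, AT3G28550, AT3G54580 and AT4G08400, out of 2507 different genes listed in the deposited tables. They were chosen by gene identifier because the authors' tables list them as changed, so their presence in a list and their direction there are a description and were not tested. RNA was sequenced from 14-day-old seedlings sampled as leaf, stem and root together. The groups were an overexpression line of the sirtuin gene SRT1 (OX, line OX-SRT1-1), a line labelled as RNA interference against SRT1 (RNAi, line RNAi-1) and wild type (Col), with 3 libraries each, 9 in all. These line names come from the growth protocol, whereas the deposited tables name the transgenic columns ox5 and r5, and whether these are the same lines is not stated. Each transgenic genotype is 1 line, all groups were grown on half-strength MS medium, written 1/2 MS in the labels, and the sources used here do not give the promoters that drive the constructs. The tables give 1 level per gene and group in FPKM (fragments scaled to transcript length and to the mapped fragments of the library) and no value per library, so no SD can be given, a difference counts as called only because the authors listed it, and depth is unknown.

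Extensins are hydroxyproline-rich glycoproteins of the plant cell wall. Their repeats of a serine followed by a run of prolines are hydroxylated and carry short arabinose chains and a galactose, and their tyrosines are joined into crosslinks by secreted peroxidases, which makes them an insoluble network. EXT3, also known as ROOT-SHOOT-HYPOCOTYL DEFECTIVE, is needed for the new wall that separates dividing cells of the embryo. ATEXT4 is known to be induced by wounding, and many of the extensins without a symbol are known from root hairs.

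The repeats can be read directly in the coding DNA. The stretches below are printed because they show the repeat that defines the family and the different forms it takes among these genes. Each is the 120-base, in-frame stretch with the most codons in serine-proline blocks, read from the RefSeq genome TAIR10.1, and capitals mark each whole block, a serine codon followed by at least 3 proline codons.
ATEXT4 (chr1:28896659-28896778, minus strand): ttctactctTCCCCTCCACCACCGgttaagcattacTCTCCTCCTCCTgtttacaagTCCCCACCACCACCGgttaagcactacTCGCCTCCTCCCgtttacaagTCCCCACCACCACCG
EXT3 (chr1:7454725-7454844, minus strand): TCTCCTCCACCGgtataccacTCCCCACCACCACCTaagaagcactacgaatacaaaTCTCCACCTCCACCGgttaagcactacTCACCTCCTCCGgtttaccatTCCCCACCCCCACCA
AT2G43150 (chr2:17945986-17946105, plus strand): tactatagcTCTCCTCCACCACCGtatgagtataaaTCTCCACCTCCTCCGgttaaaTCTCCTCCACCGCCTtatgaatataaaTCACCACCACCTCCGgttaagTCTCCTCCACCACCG
AT1G26250 (chr1:9084305-9084424, plus strand): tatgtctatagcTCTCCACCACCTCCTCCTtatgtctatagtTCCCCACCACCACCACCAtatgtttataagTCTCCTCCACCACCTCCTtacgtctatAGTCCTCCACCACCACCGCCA
AT1G26240 (chr1:9079325-9079444, minus strand): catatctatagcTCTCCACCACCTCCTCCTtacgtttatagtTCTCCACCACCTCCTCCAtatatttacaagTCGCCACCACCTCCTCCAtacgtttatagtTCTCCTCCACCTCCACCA
AT2G24980 (chr2:10622663-10622782, plus strand): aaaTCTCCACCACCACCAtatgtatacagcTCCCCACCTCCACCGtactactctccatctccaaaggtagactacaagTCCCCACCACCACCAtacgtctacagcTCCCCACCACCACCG
AT4G08400 (chr4:5324832-5324951, minus strand): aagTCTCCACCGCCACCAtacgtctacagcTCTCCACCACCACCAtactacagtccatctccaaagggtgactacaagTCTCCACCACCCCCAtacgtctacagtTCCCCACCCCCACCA
In the printed stretch of ATEXT4 blocks with 3 and with 4 proline codons alternate, separated mostly by codons for valine, lysine, histidine and tyrosine. EXT3 also has blocks of 3 and of 4, in no strict alternation, and 1 of its spacers in this stretch also holds a glutamate codon. In AT2G43150 every block has 4 proline codons and the spacers are short. In the printed stretches of AT1G26250 and AT1G26240 the blocks have 5 or more proline codons, while both genes also hold shorter blocks elsewhere. The spacers there begin with tyrosine-valine-tyrosine, or with isoleucine in the middle place. AT2G24980 and AT4G08400 have pairs of blocks with 4 proline codons and nearly the same bases between them.

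The 10 genes lie on 4 chromosomes and all are protein coding, given here with the deposited TAIR10 loci. On chromosome 1 are EXT3 (chr1:7453236-7455009, minus strand), AT1G23720 (chr1:8388655-8391540, plus strand), AT1G26240 (chr1:9078140-9079576, minus strand), AT1G26250 (chr1:9083838-9085464, plus strand) and ATEXT4 (chr1:28895301-28896883, minus strand). AT1G26240 and AT1G26250 are near neighbours on opposite strands. AT2G24980 (chr2:10622453-10624132, plus strand) and AT2G43150 (chr2:17945893-17947022, plus strand) are on chromosome 2, AT3G28550 (chr3:10700707-10703929, minus strand) and AT3G54580 (chr3:20200688-20203782, minus strand) on chromosome 3, and AT4G08400 (chr4:5323800-5325341, minus strand) on chromosome 4. The coding sequence taken here for each gene is a single exon in 9 of the 10 and 4 exons in ATEXT4. The codon features, those of ATEXT4 included, hold for that sequence, and no other annotated coding sequence of a gene was counted.

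Over the whole coding sequences, of 212 to 1024 codons, the 10 genes held 17 to 73 such blocks, a median of 40.5. Proline codons made up 22.5% of ATEXT4 and 46.0% of AT1G26240, the lowest and highest of the 10, with a median of 38.2%, against a median of 4.56% over 27137 nuclear coding sequences of at least 50 codons. Only 24 of those 27137 genes held at least 17 blocks, the fewest found in any of the 10, and all 10 are among the 24. The form of the repeat differed. AT1G26240 and AT1G26250 held 40 and 28 blocks with 5 or more proline codons, EXT3 1 and AT1G23720 3, and the other 6 genes none. The tyrosine-valine-tyrosine triplet, a form linked to crosslinking, occurred 39 times each in AT1G26240 and AT1G26250. AT3G28550 held 35, AT3G54580 33, AT1G23720 31, AT2G24980 20 and AT4G08400 16. EXT3 held 12, AT2G43150 1 and ATEXT4 0. Only valine in the middle place was counted, whereas the stretches of EXT3 and AT2G43150 above also hold tyrosine-glutamate-tyrosine.

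**Figure D1:**
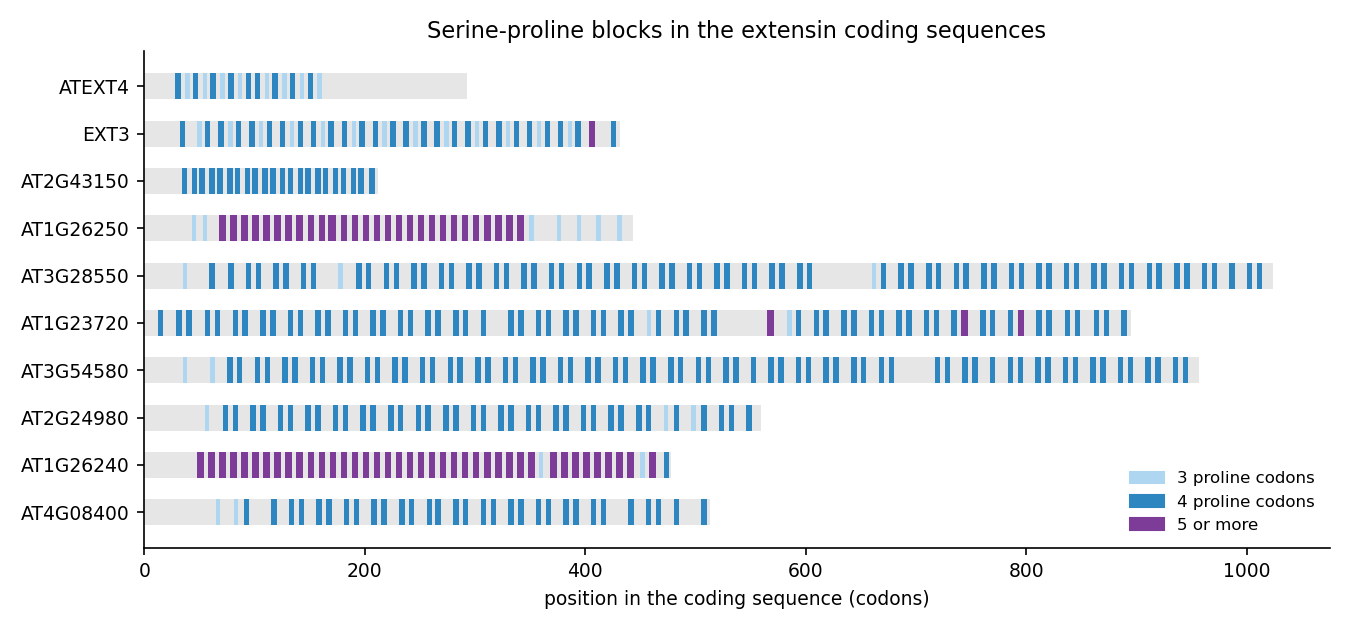
Serine-proline blocks along the coding sequences of the 10 extensin genes, with the position in codons on the x axis and genes ordered from the highest wild-type level at the top. Grey is the coding sequence and colours give the number of proline codons in a block; ATEXT4 holds 17 blocks in the first part of its sequence and AT3G28550 holds 73 along its whole length.

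In OX, all 10 extensin genes were lower than in wild type and 0 were higher. Their folds ran from 2.45 to 8.97, with a median of 3.39, against a median of 2.49 over the 745 nuclear genes of the OX lower list. Of all 1966 entries of the OX lists, 832 or 42.3% were lower in OX, and since the genes were chosen from these lists nothing is read from their own count. Set against all 27444 nuclear protein-coding genes of RefSeq, expressed or not, the OX lower list held 2.6%. The summed level of the 10 genes was 229 FPKM in OX and 1095 FPKM in wild type, 4.77-fold lower. In whole seedlings, fewer cells of a type and less RNA per cell cannot be told apart.

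ATEXT4 stood apart from the rest. In the authors' deposited table it was 75.2 FPKM in OX and 675 FPKM in wild type, 8.97-fold lower, a log2 ratio of -3.17 (q = 0.00015). It made up 32.8% of the summed level of the 10 genes in OX and 61.6% in wild type. By fold it was number 33, and by the FPKM lost number 10, of the 745 nuclear genes lower in OX.

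The other 2 abundant genes moved less. EXT3 was 61.3 FPKM in OX and 170 FPKM in wild type, 2.77-fold lower (log2 ratio -1.47). AT2G43150, the shortest of the 10 by coding sequence, was 64.2 FPKM in OX and 157 FPKM in wild type, 2.45-fold lower (log2 ratio -1.29), the smallest fold of the 10 and the nearest to the limit of 2 that all listed genes pass. In wild type ATEXT4 was far above these 2, while in OX the 3 genes lay close together, between 61.3 and 75.2 FPKM.

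At intermediate levels, AT1G26250 was 10.5 FPKM in OX and 35.6 FPKM in wild type, 3.39-fold lower. AT3G28550 was 6.74 FPKM in OX and 19.8 FPKM in wild type, and AT1G23720 was 6.62 FPKM in OX and 19.8 FPKM in wild type, 2.94-fold and 2.99-fold lower. These are 2 of the longest extensins, with 1024 and 895 codons, and their levels were nearly equal in both groups. AT3G54580, with 957 codons, was 3.49 FPKM in OX and 11.8 FPKM in wild type, 3.39-fold lower.

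The least expressed genes had large folds on small values. AT2G24980, which RefSeq names EXT6, was 0.955 FPKM in OX and 4.06 FPKM in wild type, 4.25-fold lower. AT1G26240 was 0.213 FPKM in OX and 1.16 FPKM in wild type, 5.47-fold lower, with q = 0.0023 in the authors' deposited table. AT4G08400 was 0.221 FPKM in OX and 0.930 FPKM in wild type, 4.21-fold lower, with q = 0.00080 in the authors' deposited table. The other 8 genes had the smallest p-value of the authors' deposited table, 5e-05, which 1467 of the 1966 OX entries share. That table's ratio of p to q puts 57.9% of all its tests at or below the largest p-value it lists, so a small q was common in this comparison. The share was 50.2% in the authors' deposited RNAi tables.

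With no value per library, neighbours in the order of levels cannot be told apart by a test. The order by level in wild type was ATEXT4, EXT3, AT2G43150, AT1G26250, AT3G28550, AT1G23720, AT3G54580, AT2G24980, AT1G26240 and AT4G08400. In OX 2 neighbouring pairs changed places, AT2G43150 being above EXT3 and AT4G08400 above AT1G26240.

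**Figure D2:**
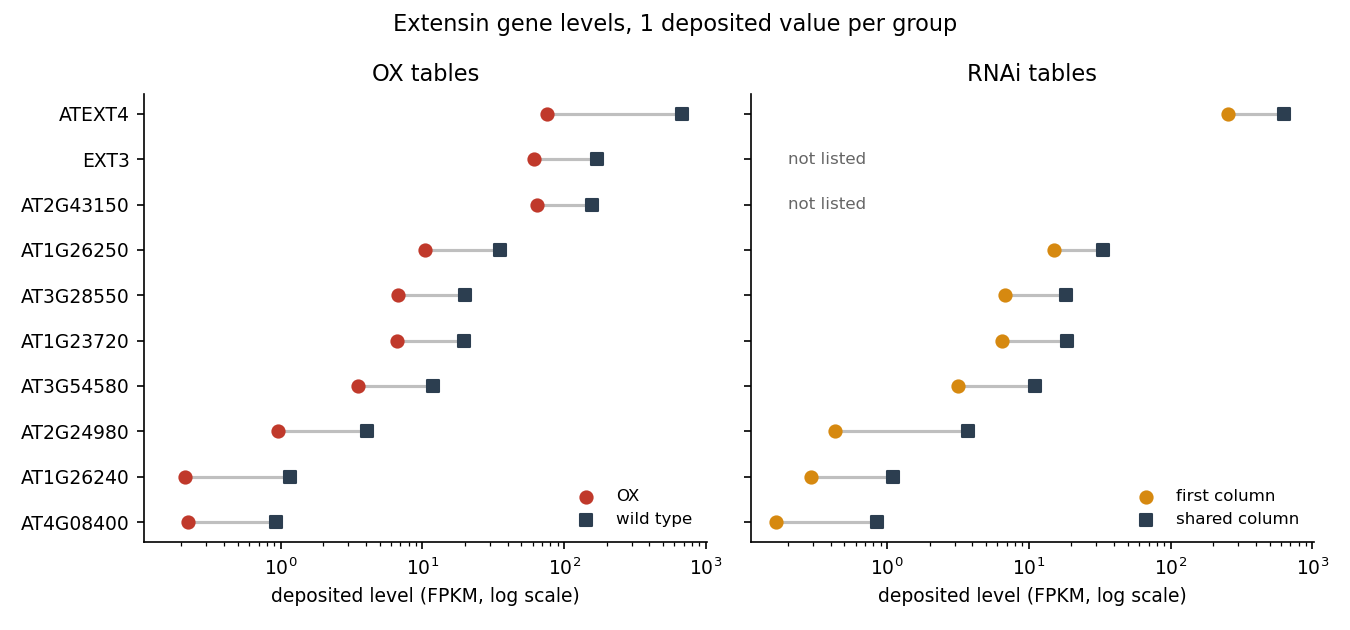
Deposited levels of the 10 extensin genes in FPKM on a log axis, with OX and wild type on the left and the first and shared columns of the RNAi tables on the right; each point is 1 value per group and no error can be shown. Every listed pair has the OX or first-column point to the left of its partner, and ATEXT4 has the widest gap on the left panel, 75.2 against 675 FPKM.

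The labels of the RNAi tables conflict, which decides how the next values can be read. The list titled higher in RNAi, which holds the 8 extensin genes listed there, names wild type over its first column and RNAi over its second, and the list titled lower has these names the other way round. Of 584 genes listed in both comparisons, 583 stood once in each. The log2 ratio of the wild-type column of the OX tables over the second column of either RNAi list was within 0.1 of its median, 0.08, in 572 of the 583, the 8 extensin genes included, and outside it in 11. These 11 are SRT1 itself and 10 of 13 genes whose locus is written in another format, 0 of them extensin genes. Over the 569 other genes the median absolute deviation of this ratio was 0.0081, and it was 0.447 for the first columns. The second column is therefore called the shared column, and directions are given for the first column relative to it.

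SRT1 (AT5G55760) was 6.05 FPKM in OX and 1.75 FPKM in wild type, 3.46-fold higher. In the RNAi tables its level was 2.37 FPKM under the label RNAi and 0.419 FPKM under the label wild type, 5.67-fold higher, which goes against the label of a knockdown. That row is not used here to decide the labels. Its wild-type value is 4.18 times below the one in the OX tables, and it is the only 1 of 3092 entries whose deposited log2 ratio, 2.37 in size, differs by more than 0.01 from the ratio of its own values, 2.50. Read by the title and labels of their list, the same 8 extensin genes would be higher in the group labelled RNAi.

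In the RNAi tables, 8 of the 10 extensin genes were listed, all 8 with the lower level in the first column and the higher in the shared one, and EXT3 and AT2G43150 were not listed. Of all 1126 entries of these tables, 749 or 66.5% were lower in the first column, and nothing is read from the count of the extensin genes. Of all 27444 nuclear protein-coding genes, 2.38% were listed as lower in the first column. Folds ran from 2.22 to 8.64 with a median of 3.15, against a median of 2.42 over the 673 nuclear genes of that list. A gene that is not listed may have missed the fold limit of 2 or the authors' test, and no value of EXT3 or AT2G43150 in this comparison was analysed here.

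ATEXT4 was 253 FPKM in the first column and 628 FPKM in the shared column, 2.48-fold lower (log2 ratio -1.31; q = 0.0002 in the authors' deposited table). AT1G26250 was 15.1 FPKM in the first column and 33.4 FPKM in the shared column, 2.22-fold lower, the smallest fold here. The long extensins had folds near those in OX, with AT3G28550 at 6.78 FPKM in the first column and 18.4 FPKM in the shared column, and AT1G23720 at 6.46 FPKM in the first column and 18.5 FPKM in the shared column, 2.71-fold and 2.87-fold lower.

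AT3G54580 was 3.19 FPKM in the first column and 11.001 FPKM in the shared column, 3.45-fold lower. AT2G24980 was 0.430 FPKM in the first column and 3.72 FPKM in the shared column, 8.64-fold lower, number 12 by fold of the 673 nuclear genes of that list. AT4G08400 was 0.166 FPKM in the first column and 0.854 FPKM in the shared column, 5.15-fold lower (q = 0.0069 in the authors' deposited table). AT1G26240 was 0.290 FPKM in the first column and 1.10 FPKM in the shared column, 3.79-fold lower, and its q of 0.012 was the largest of the extensin genes in the authors' deposited tables.

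**Figure D3:**
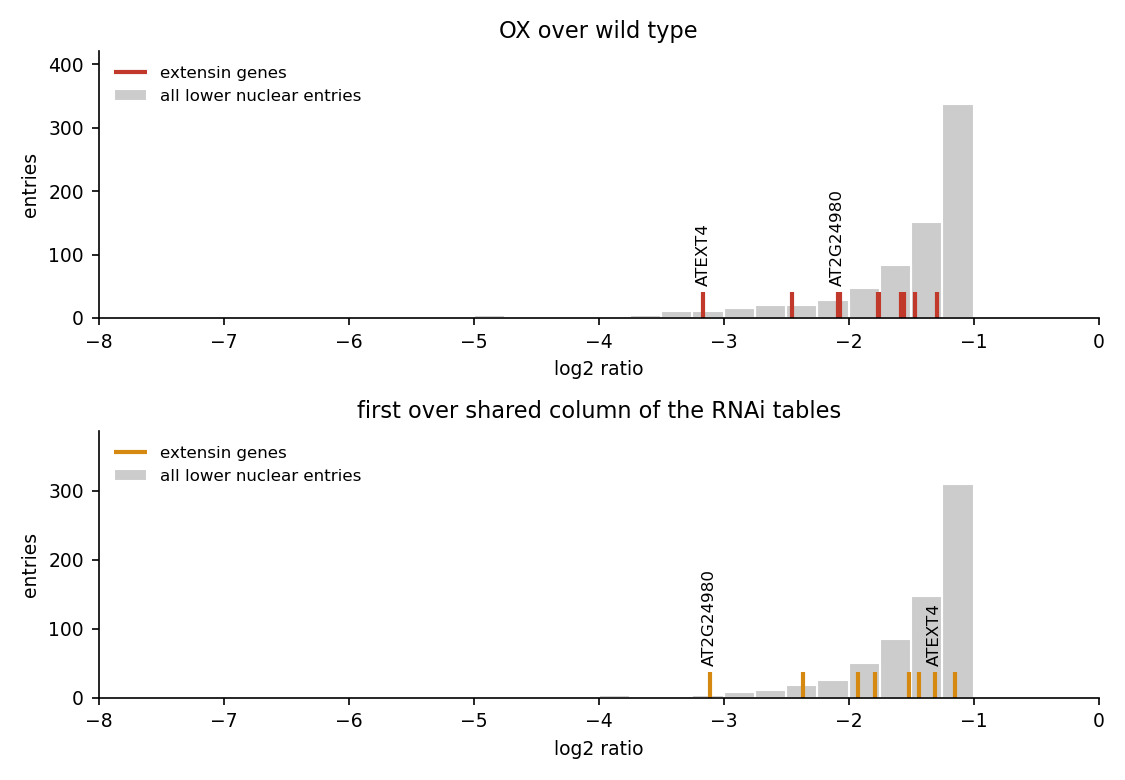
Number of lower nuclear entries by log2 ratio in bins of 0.25 (grey), for OX over wild type (top) and for the first over the shared column of the RNAi tables (bottom), with coloured ticks for the extensin genes. ATEXT4 lies at -3.17 in the top panel and -1.31 in the bottom panel, and AT2G24980 at -2.09 and -3.11.

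The 2 comparisons share their wild-type libraries as far as the columns show, so they are set side by side without a test of likeness. The folds of ATEXT4, AT1G26240, AT1G26250, AT3G28550 and AT1G23720 were larger in OX, and those of AT2G24980, AT3G54580 and AT4G08400 larger in the RNAi tables. The level in OX was 0.298 times that in the first column of the RNAi tables for ATEXT4 and 2.22 times that for AT2G24980, the extremes of the 8. For AT3G28550 and AT1G23720 these ratios were 0.995 and 1.02. Over the 8 genes the wild-type column of the OX tables was 1.06 to 1.09 times the shared column, so a ratio between the tables carries an offset of this size, and whether OX and the first column differ was not tested.

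Composition differed between the abundant and the other extensin genes, a description whose split was chosen after the values were seen. The 3 genes above 100 FPKM in wild type, ATEXT4, EXT3 and AT2G43150, had 3.77% to 10.2% histidine codons, and the other 7 had 0.0% to 0.836%. Tyrosine codons were 7.85% to 15.1% in the 3 abundant genes and 18.2% to 22.0% in the other 7, so the ranges did not overlap for either residue. Coding length was 212 to 431 codons in the 3 abundant genes and 443 to 1024 codons in the other 7. Tyrosine-valine-tyrosine triplets, at 0 to 12 against 16 to 39, did not overlap either. Proline overlapped, at 22.5% to 42.5% in the abundant genes and 35.7% to 46.0% in the other 7. So did lysine, at 6.13% to 12.5% against 3.61% to 8.05%, and the number of blocks, at 17 to 41 against 33 to 73. With 3 genes against 7 and no such ranges taken over all coding sequences, no rule is read from the separations.

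Repeats and close copies limit how far reads can be assigned. Of all stretches of 50 bases in a coding sequence, 73.0% were distinct within AT2G24980 and 78.7% within AT1G26240, against 100% in AT2G43150. AT4G08400 shared 61.8% of its stretches of 50 bases with the coding sequence of AT4G08410, so the split of reads between these 2 genes is uncertain. AT2G24980 shared 3.74% with AT5G06630, AT3G54580 shared 2.41% with HRGP1 (AT3G54590), and AT3G28550 shared 1.26% with AT3G54580. The other 6 genes shared 0 stretches with a coding sequence elsewhere in the nuclear genome. RefSeq annotates a gene on the opposite strand over part of EXT3 (AT1G21313, 522 bases) and over most of AT1G26250 (AT1G26255, 1609 bases). The coding sequences of these 2 genes hold 32.6% of the 50-base stretches of EXT3 and 69.8% of those of AT1G26250. Use of strand in counting is not given in the sources used here, so reads from the bases that each pair shares cannot be told apart.

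Other extensins were listed with the same direction. Of 12 further extensin and related proline-rich genes, 7 were listed in OX and 7 in the RNAi tables, all lower in OX and in the first column and 0 higher. These shares stand beside 2.6% and 2.38% of all nuclear protein-coding genes listed as lower, and the list was chosen with earlier results of these data known. Their levels were low, 0.272 to 2.02 FPKM in OX and 0.903 to 6.93 FPKM in wild type, with folds from 2.87 to 3.72. In the RNAi tables the same 7 were 3.996-fold to 8.31-fold lower. EXT11 (AT5G49080) was 0.476 FPKM in OX and 1.60 FPKM in wild type, and 0.177 FPKM in the first column and 1.47 FPKM in the shared column, 3.36-fold and 8.31-fold lower. EXT13 (AT5G35190) was 2.87-fold lower in OX and 6.74-fold lower in the first column. AT4G08410, the close copy of AT4G08400, was 0.272 FPKM in OX and 0.903 FPKM in wild type, 3.32-fold lower. All 7 had the larger fold in the RNAi tables, as did 3 of the 8 extensin genes described above.

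Of 13 prolyl hydroxylases and glycosyltransferases that act on extensins, 0 were listed in OX and 1 in the RNAi tables. Beside 2.6% and 2.38% of all nuclear protein-coding genes listed as lower, nothing is read from these counts. The 1 listed was AT2G25260, a hydroxyproline arabinosyltransferase, at 0.852 FPKM in the first column and 2.05 FPKM in the shared column, 2.40-fold lower. Of 14 class III peroxidases, the family that crosslinks wall proteins, 3 were lower in OX and 6 lower in the first column. None was higher (0 in each), and 11 and 8 were not listed. Of all nuclear protein-coding genes, 2.6% and 2.38% were listed as lower. Among listed genes only, all 3 and all 6 peroxidases were lower, beside 42.3% and 66.5% of all listed entries. AT5G64120 was 25.0 FPKM in OX and 298 FPKM in wild type, 11.9-fold lower, and 63.8 FPKM in the first column and 282 FPKM in the shared column, 4.41-fold lower. Like ATEXT4, it was abundant and had the larger fold in OX. PER4 (AT1G14540) was 4.32-fold lower in OX and 3.96-fold lower in the first column.

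Among 17 chimeric extensins, in which an extensin domain is joined to leucine-rich repeats or a receptor kinase, 3 were lower in OX and 1 lower in the first column. For scale in this paragraph, 2.6% and 2.38% of all nuclear protein-coding genes were listed as lower. LRX3 (AT4G13340), which acts in vegetative tissue, was 164 FPKM in OX and 390 FPKM in wild type, 2.37-fold lower, and was not listed in the RNAi tables. LRX1 (AT1G12040), which acts in root hairs, was 0.606 FPKM in OX and 1.36 FPKM in wild type, 2.25-fold lower, and 5.26-fold lower in the first column. None of the 6 PERK receptor kinases of the list was listed (0 of 6), and at such shares nothing is read from this. Of 4 proline-rich protein genes, 2 were lower in OX and 3 in the first column. PRP4 (AT4G38770) was 317 FPKM in OX and 865 FPKM in wild type, 2.73-fold lower, and 286 FPKM in the first column and 808 FPKM in the shared column, 2.82-fold lower.

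**Figure D4:**
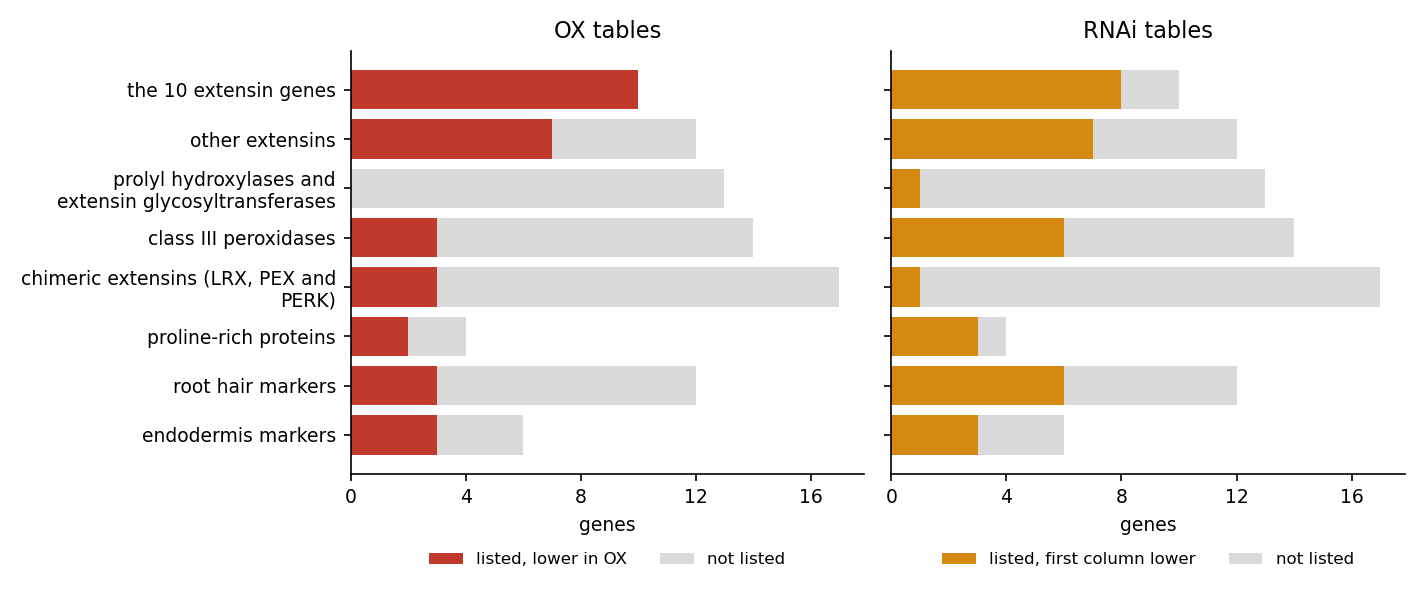
Number of genes of each list (x axis) that were listed as lower, coloured, or were not listed, grey, in OX against wild type (left) and in the first against the shared column of the RNAi tables (right). No gene of any list was listed as higher; of the 10 extensin genes 10 were lower in OX and 8 lower in the first column.

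Markers of root cells were also listed as lower. Of 12 root hair markers, 3 were lower in OX, at a summed 3.75 FPKM in OX and 7.71 FPKM in wild type, with a median fold of 2.05. Of these 3, PRP3 and LRX1 are wall protein genes already counted above, and EXPA7 is the only separate marker. In the RNAi comparison 6 of 12 were lower in the first column, at a summed 4.60 FPKM in the first column and 15.4 FPKM in the shared column, with a median fold of 3.59. They are PRP3 and LRX1 again, AGP3, EXPA7 and EXPA18, root hair expansins, and XTH14, a xyloglucan-modifying enzyme, while the root hair regulators RHD6, RSL2 and RSL4 were not listed. Of 6 endodermis markers, 3 were lower in OX, at a summed 7.29 FPKM in OX and 20.1 FPKM in wild type, and 3 were lower in the first column, at a summed 7.79 FPKM in the first column and 18.7 FPKM in the shared column. No listed marker was at 0, but markers not listed have no value here, so the presence of these cells cannot be judged from this. All nuclear protein-coding genes were listed as lower at 2.6% in OX and 2.38% in the first column. The part of these cells in the extensin values was not tested.

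The genes whose pair of log2 ratios lay nearest to the median of the extensin genes, out of 487 other nuclear genes listed in both comparisons, were GSTF7, ATEXO70H1, AT2G27420, COPT2 and AT4G22485. The measure of likeness was the Euclidean distance over 2 ratios, 0.0957 to 0.119. GSTF7, a glutathione S-transferase, was 13.7 FPKM in OX and 47.3 FPKM in wild type, and 15.04 FPKM in the first column and 44.3 FPKM in the shared column, 3.44-fold and 2.95-fold lower.

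The 250 bases before the RefSeq start of each gene were searched on both strands for 4 motifs. The W-box TTGAC occurred before 5 of the 10 extensin genes, EXT3, AT1G26240, AT1G26250, AT3G28550 and AT3G54580, and before 44.9% of 27443 protein-coding genes. The G-box CACGTG, the GCC box GCCGCC and the root hair element RHE were found before 0 of the 10, and before 6.49%, 1.87% and 0.754% of all genes. A match is a description of the letters in this window.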

How the data were processed

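For the RNA of 14-day-old seedlings, the submitters' processing notes name TopHat2 (version 2.1.1), Cufflinks (version 2.2.1), Cuffdiff and the build TAIR10, without their roles. Levels are the authors' deposited FPKM values, 1 per group, in 4 lists that hold only genes differing at least 2-fold. The p-values and q-values are the authors' deposited ones. The deposited log2 column is that of the second over the first value. Here log2 ratios of the first over the second column and folds were computed from the deposited FPKM values without a pseudocount. The fold ratio column deposited in some lists and the rescaled fold score the authors deposited in others were not used. Loci are TAIR10 as deposited, counted from 1.

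No test was run on the extensin genes: the planned test of values per library, limma on log2(FPKM + 1), had no such values, and its planned other branch, a description, was used. Coding sequences and gene starts come from RefSeq TAIR10.1, where 95.6% of 2268 listed genes have their coding sequence inside the deposited locus. For each extensin gene the longest coding sequence inside the locus was taken. In AT3G28550 and AT3G54580 it starts 18 bases outside. Sequence features were counted on codons, not on proteins as planned, in Python 3.11.15 with pandas 2.3.3, and checked on simulated sequences. The genes and lists, 78 entries in 7 lists, were chosen with earlier results of these data known. All 10 extensin genes, the listed genes of those lists, SRT1 and the 5 most alike genes could be named. Groups come from the sample titles. Whether the 3 libraries of a genotype are separate plants or cultures is not in the labels, so the deposited p-values may measure technical spread.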

Additional observations from a re-analysis of the deposited data

How the results depend on the processing

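All 10 extensin genes remained in the OX lower list with a q-value of at most 0.01, 8 with a log2 ratio of at least 1.5 in size (EXT3 and AT2G43150 were lost), 8 with log2(FPKM + 1) and 7 with at least 5 FPKM. Of the 8 listed in the RNAi tables, 5 were left with a log2 ratio of at least 1.5 in size (ATEXT4, AT1G26250 and AT3G28550 were lost) and 5 with at least 5 FPKM (AT1G26240, AT2G24980 and AT4G08400 were lost), 6 with log2(FPKM + 1) and 7 with the q-value limit. The median log2 ratio in OX, -1.76, was -1.44 with log2(FPKM + 1), -2.86 relative to the median of all listed nuclear entries, which is 1.09, and -1.67 without AT3G54580 and AT4G08400, each the later of a pair of extensin genes sharing coding sequence. The median in the RNAi tables, -1.65, was -1.31 with log2(FPKM + 1), -1.75 with the wild-type column of the OX tables in place of the shared column, -1.48 without the same 2 genes, and, in an alternative added after seeing the data, -0.56 relative to the median of all listed nuclear entries, which is -1.10. Scaling to listed entries thus moved the medians in opposite directions. The lists hold no gene under 2-fold and have 1134 higher and 832 lower entries in OX, against 377 higher and 749 lower in the first column, so their medians follow which list is longer. In 500 bases in place of 250, a window added after seeing the data, 7 of the 10 genes had a W-box, against 67.4% of all genes. Leaving out each replicate in turn was not run, since the tables hold 1 value per group. No paired analysis was possible because no column holds the value of a single library. Depth is unknown, and values under 1 FPKM rest on few reads by an amount that cannot be given.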

Other observations

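A wider set, taken after the lists were seen, was every nuclear gene whose RefSeq product names extensin. Leaving out products of the pollen Ole e 1 type, it has 29 genes, of which 17 were lower in OX and 15 lower in the first column of the RNAi tables, with 0 higher in either. The 10 extensin genes chosen from the lists make up 10 of the 29, 10 of the 17 and 8 of the 15, so nothing is read from these totals. That leaves 7 others in each comparison, among them AT4G08410, the close copy of AT4G08400. Shares of all nuclear protein-coding genes listed as lower were 2.6% and 2.38%. All of these others but AT5G59170 in OX and AT2G27380 in the first column were already counted in the lists above, so the wider set adds little to them. AT5G59170, a proline-rich extensin-like gene on no list above, was 0.118 FPKM in OX and 0.815 FPKM in wild type, 6.915-fold lower, with q = 0.027 in the authors' deposited table. AT2G27380, whose product is extensin proline-rich 1, was 0.199 FPKM in the first column and 0.866 FPKM in the shared column, 4.35-fold lower, and was not listed in OX.

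Of 27 genes of the pollen Ole e 1 allergen and extensin family, 5 were lower in OX and 6 lower in the first column, with 0 higher, beside the same 2.6% and 2.38%. AT5G15780 was 82.4 FPKM in OX and 203 FPKM in wild type, 2.46-fold lower, and 86.2 FPKM in the first column and 189 FPKM in the shared column, 2.197-fold lower. AT2G27385 was 201 FPKM in the first column and 496 FPKM in the shared column, 2.46-fold lower, and was not listed in OX. AT5G10130 was 0.936 FPKM in OX and 2.40 FPKM in wild type, 2.57-fold lower, and 0.517 FPKM in the first column and 2.26 FPKM in the shared column, 4.37-fold lower.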
